A study of Mus musculus with 9 samples.

Results

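The genes described here encode membrane carriers for organic anions, organic cations, bile acids and carnitine. They were chosen by symbol among the protein-coding genes of the deposited table: every Slco gene (organic anion transporting polypeptides), every Slc22a gene (organic cation, carnitine and organic anion transporters), every Slc10a gene (the sodium bile acid cotransporter family) and Slc47a1 and Slc47a2 (multidrug and toxin extruders). The rule found 48 genes of 56748 in the table. No expression value entered the rule itself, but the families were chosen with earlier results of these data known. Of these, 14 are Slco, 25 Slc22a, 7 Slc10a and 2 Slc47a genes. A filter on low counts left 25 of the 48 for testing, and the other 23 are accounted for at the end of the families.

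Poly(A) RNA of bulk liver was sequenced from male C57BL/6J mice that ate a high-fat diet for 20 weeks from 8 weeks of age and were 28 weeks old. One group received formoterol, a long-acting beta2-adrenergic agonist, at 1 mg/kg into the peritoneum each day of the last 4 weeks, and the other received the DMSO vehicle on the same schedule. The comparison has 5 formoterol libraries, named M46, M47, M48, M49 and M50 by their column codes, and 4 vehicle libraries, M56, M58, M59 and M60. All groups shared the diet, the strain and the sex, so no value here speaks of animals on chow, of females or of untreated mice. Group membership rests on the suffix of the column names, HF for formoterol and HD for vehicle, together with the group sizes in the design text. Each column carries one animal code, and no label says how the animals were housed or processed, so the p-values measure the spread between these samples.

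Hepatocytes take solutes from portal blood across the basolateral membrane and secrete many of them into bile. Slc10a1 (NTCP) carries conjugated bile acids with sodium, and Slco1b2 and the Slco1a carriers take up unconjugated bile acids, bilirubin, steroid conjugates and drugs without sodium. Slc22a7 (OAT2) brings in organic anions and Slc22a5 (OCTN2) carnitine, while Slc47a1 (MATE1) exports cations toward bile. In mice several of these genes, Slco1a1 among them, are known to be expressed at different levels in male and female liver under the control of the pulsatile pattern of growth hormone.

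Libraries held 12336665 to 20339665 counts, of which the 48 genes together took 0.184% to 0.275%. Formoterol library M49 stood apart from the other 4 of its group in genes outside the families too. It had 32.3 CPM (read counts scaled by library size) of the collagen gene Col1a1 against 0.732 to 9.18 in the other formoterol libraries and 11.6 to 45.8 in the vehicle libraries. The main comparisons are therefore given with and without M49. Because M49 was singled out from these same data, the p-values without it do not allow for that choice. Hepatocyte marker genes summed to 109800 to 149400 CPM in the formoterol and 94070 to 106900 in the vehicle libraries (14 of 15 genes found under the symbols used, none at 0 throughout), with M49 the lowest of its group. Summed endothelial markers (12 genes) lay at 60.5 to 212 CPM against 175 to 214, and stellate cell and fibroblast markers (12 genes) at 85 to 402 against 260.4 to 430, with no marker of either list at 0 throughout. M49 gave the highest formoterol value of both sums. The log2 fold change was negative for 12 of 12 endothelial and 11 of 12 stellate genes, beside 6695 of 13042 genes tested. No gene of either list had an edgeR unadjusted p under 0.05. Macrophage markers (12 genes) summed to 109 to 163 CPM against 142 to 213. The log2 fold change was negative for 10 of the 12. At an edgeR unadjusted p under 0.05, 2 were lower and 0 higher, where 5.53% of all genes were lower and 9.03% higher. The part of these cell types in the results was not tested. In bulk tissue fewer cells of a type and less RNA per cell cannot be told apart.

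Per unit of length the carriers described were led by Slco1b2 and Slc10a1. On the scale of CPM per kilobase of the deposited gene length, Slco1b2 had a mean level of 165 ± 47.9 in the formoterol (SD, n = 5) and 141 ± 6.52 in the vehicle livers (SD, n = 4), and Slc10a1 124.7 ± 15.3 and 131 ± 23.1. Slco1b2 was above Slc10a1 in 7 of 9 libraries. Lower levels were those of Slc22a18 (87.7 ± 17.3 and 58 ± 10.8), Slc22a30 (53.2 ± 18.3 and 34.2 ± 2.73), Slc47a1 (42.6 ± 3.96 and 39.5 ± 3.71), Slco1a1 (42.4 ± 25 and 6.98 ± 5.79) and Slco2b1 (26.2 ± 2.42 and 24.1 ± 1.37). Slc22a18 exceeded Slc22a30 in 9 of 9 libraries, but other neighbours in this stretch were not separated: Slc22a30 exceeded Slc47a1 in 4 of 9 and Slco1a1 exceeded Slco2b1 in 4 of 9. Slc22a7, Slco1a4, Slc10a2, Slc22a27, Slc22a5 and Slc22a23 followed with means over all 9 libraries of 14.4 to 6.40 CPM per kilobase.

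**Figure D1:**
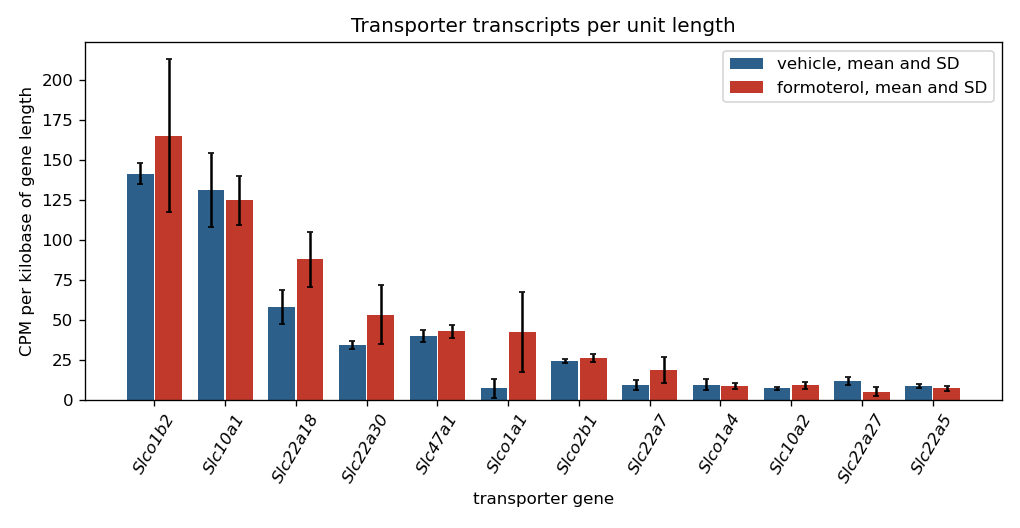
Mean level in CPM per kilobase of gene length (vertical axis, from 0) of 12 carrier genes with high means over all libraries, for vehicle (blue, n = 4) and formoterol (red, n = 5), with SD as bars. Slco1b2 and Slc10a1 lead in both groups, and Slco1a1 has 42.4 ± 25 in formoterol against 6.98 ± 5.79 in vehicle.

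With all 9 libraries no member passed edgeR's quasi-likelihood test (smallest Benjamini-Hochberg adjusted p = 0.179, for Slc10a5), and neither did any of the 13042 genes tested (0.0%). At an unadjusted p under 0.05, 8 of the 25 members tested stood out, 32% of them, where 14.6% of all genes tested did. The 5 higher in formoterol were Slco1a1, Slc22a28, Slc22a7, Slc22a30 and Slc22a18 (20% of members, against 9.03% of all genes higher). The 3 lower were Slc22a27, Slc10a5 and Slc10a3 (12%, against 5.53% of all genes lower). DESeq2 called 1 member, Slc22a27 (adjusted p = 0.022, where 3.15% of the genes with an adjusted p were called, 2.31% higher and 0.845% lower). Plain limma-voom called 0 members and the filter-free edgeR fit also 0, the latter with 1.09% of all genes called. When voom weighted each library by its quality, 6 members were called, which were Slc22a18, Slc22a27, Slc22a28, Slc22a30, Slc22a7 and Slco1a1 (24% of members, against 10.5% of all genes; 5 were higher, where 6.07% of all genes were, and 1 was lower, where 4.46% were).

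Without M49 edgeR called 7 members at an adjusted p under 0.05, 28% of those tested, where it called 5.51% of all 12736 genes tested. Slc22a28, Slc22a7, Slc22a30 and Slc22a18 rose in that comparison, where 3.47% of all genes did. Slc22a27, Slc10a5 and Slco3a1 fell, where 2.04% did. The adjusted p-values do not allow for M49 having been singled out from these data. Leaving out any other single library called no member, with 0.0303% of all genes called without M60 and none without the rest. The median log2 fold change of the 25 members was 0.09, beside −0.01 over all genes tested, with 14 members positive and 11 negative, where 48.7% of all genes were positive. At an unadjusted p under 0.05 without M49, 6 members were higher, where 12.6% of all genes were, and 4 lower, where 10.8% were (23.4% of all genes in either direction). With quality weights these counts were 6, against 14.3% of all genes, and 5, against 14.1% (28.4% in either direction). Some members did not pass edgeR with or without M49. Nearest to passing without it were Slco1a1, Slc22a29, Slc10a2, Slc10a3 and Slco1b2 (edgeR adjusted p = 0.0724, 0.0751, 0.178, 0.233 and 0.277). Farther off, the log2 fold change without M49 was −0.27 for Slco1a4, 0.07 for Slco2b1 and −0.19 for Slc22a5. It was 0.07 for Slc22a15, 0.62 for Slc22a26 and 0.56 for Slc22a4 (edgeR adjusted p from 0.394 to 0.861 for these and the former). M49 was the lowest or highest formoterol library for 64.0% of the members tested, and for 54.2% of all genes tested.

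**Figure D2:**
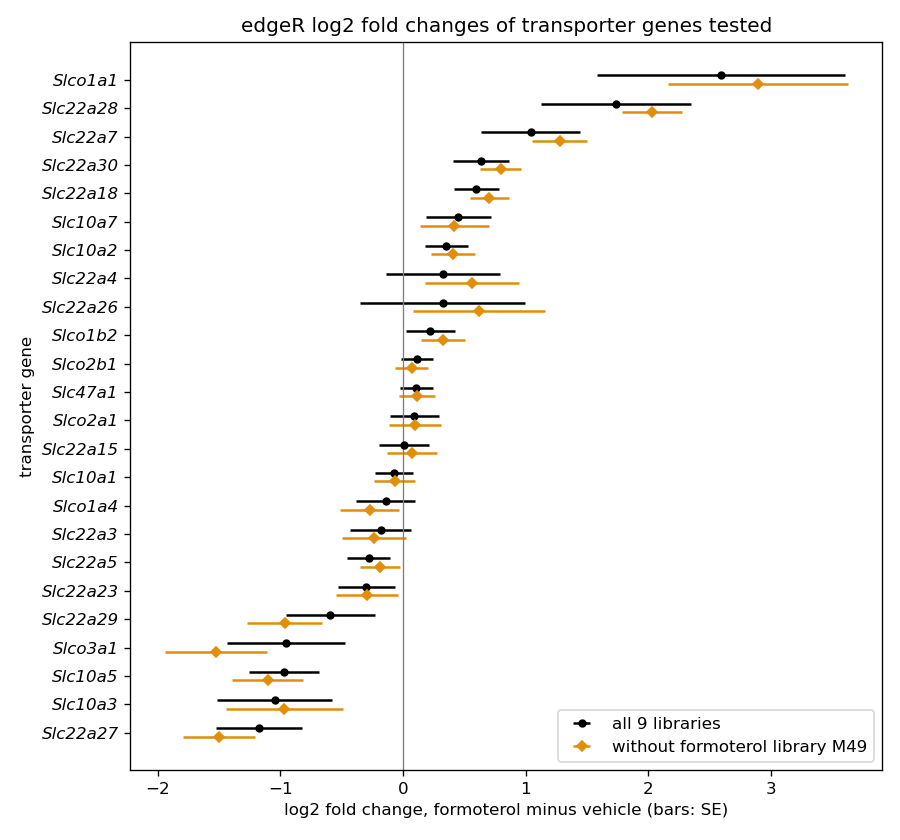
edgeR log2 fold change, formoterol minus vehicle (horizontal axis, bars SE), of 24 of the 25 members tested (vertical axis), with all 9 libraries (black circles) and without formoterol library M49 (orange diamonds). Slco1a1 lies highest at 2.60 and Slc22a27 lowest at −1.17, and the estimates of Slc22a28 and Slc22a27 lie farther from 0 without M49.

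Among the organic anion transporting polypeptides, the largest difference in any member was that of Slco1a1, and it was also the most uneven. Slco1a1 (ENSMUSG00000041698; chromosome 6, 141853008 to 141892688 on mm39) encodes OATP1A1, a carrier of steroid sulfates, bile acids and other organic anions that is known as a male-predominant gene of mouse liver. Its level was 198 CPM in M46, 279.5 in M47, 368 in M48, 13.7 in M49 and 258 in M50, against 59.8 in M56, 10.1 in M58, 66.6 in M59 and 10.8 in M60. The 4 formoterol libraries other than M49 all lay above every vehicle library, while M49 lay inside the vehicle range near its lower end. Means were 223.5 ± 132 CPM (SD, n = 5) and 36.8 ± 30.6 (SD, n = 4), a log2 fold change of 2.60 (SE 1.01, edgeR adjusted p = 0.299, exact permutation p = 0.103). Without M49 it was 2.90 (SE 0.73, edgeR adjusted p = 0.0724). Highest and lowest library differed 36.3-fold, more than for any other member tested. Slco1a1 took 14.3% to 22.8% of the summed Slco CPM in 4 formoterol libraries and 1.64% in M49, and 1.04% to 6.86% in the vehicle libraries.

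The RefSeq promoter table, on GRCm38.p6, holds 46 promoters of 300 bases for 40 of the 48 genes, running from 250 bases before the start site to 50 after it. That of Slco1a1, the gene with the largest difference, is shown 5′ to 3′ on the minus strand of chr6:141946913-141947212, with the letters of a TATA box (TATAAA, or TTTATA where it lies on the other strand) in capitals. The marked stretches read TTTATA, so they lie on the strand opposite to the gene. Only exact matches are marked. The near match tataag, on the gene's own strand and closer to the start site, is left in lower case. The marked stretches are matches of letters only, and whether they or the near match act as a TATA box was not tested. Searched on both strands, the letters occur in 13.6% of the 32851 promoters of that length in the table. Of the 46 promoters of these genes, 9 hold them. The window holds none of the letters TTCNNNGAA of a STAT site (8.3% of all promoters, 9 of the 46) or TGACGTCA of a cyclic AMP response element (1.79%, 0 of the 46).
Slco1a1: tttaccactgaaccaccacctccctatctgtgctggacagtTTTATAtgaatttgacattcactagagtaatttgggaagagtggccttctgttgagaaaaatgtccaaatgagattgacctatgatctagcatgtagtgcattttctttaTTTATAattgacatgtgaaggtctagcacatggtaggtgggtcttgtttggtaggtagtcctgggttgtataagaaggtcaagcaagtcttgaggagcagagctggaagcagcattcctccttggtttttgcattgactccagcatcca

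Slco1a4, in the same cluster of chromosome 6 (141751166 to 141801925), encodes OATP1A4, which carries a similar range of anions and is known as female-predominant in mouse liver. In the order above its level was 46.5, 41.3, 59.8, 72.3 and 50.8 CPM in the formoterol libraries and 34.1, 83.0, 48.3 and 73.7 in the vehicle libraries. The groups overlapped (log2 fold change −0.14, SE 0.24, edgeR adjusted p = 0.829), and its sign turned without M58 (0.06). M49, M58 and M60, the 3 libraries with the least Slco1a1, were the 3 with the most Slco1a4. Per kilobase, the ratio of Slco1a1 to Slco1a4 was 5.19 to 8.24 in M46, M47, M48 and M50, 2.13 in M56 and 1.67 in M59, and 0.231 in M49, 0.148 in M58 and 0.179 in M60. Of the 75-base windows of the longest GENCODE M21 transcript of Slco1a1, 1.51% were also in that of Slco1a4.

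Slco1b2 encodes the main hepatic OATP of the mouse, counterpart of the human OATP1B carriers of bilirubin and statins. Its level was 983.5, 740.4, 1129, 563 and 650.3 CPM in the formoterol libraries and 654, 729.5, 693 and 710.3 in the vehicle libraries. The formoterol libraries were spread on both sides of a narrow vehicle range (coefficient of variation 29.0% against 4.62%), and the log2 fold change was 0.22 (SE 0.20, edgeR adjusted p = 0.644). Slco2b1, a carrier of steroid sulfates and porphyrins, differed little among libraries, with 153, 162, 134, 173 and 156 CPM against 134, 140.0, 149 and 152 (log2 fold change 0.12, SE 0.13). Its groups overlapped and its sign turned when only library totals were used for scaling (−0.03). Slco2a1, the prostaglandin transporter, had 7.00, 13.9, 10.6, 10.9 and 13.5 CPM against 9.84, 10.5, 11.5 and 10.2. That gave a log2 fold change of 0.09 (SE 0.20), which turned with library totals (−0.06) and without M47 (−0.01).

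Slco3a1, which carries prostaglandins and thyroxine, was scarce and was lower in formoterol in 4 of 5 libraries. It had 0.326, 1.84, 1.10, 4.14 and 1.65 CPM against 4.49, 3.46, 3.47 and 2.96. M49 lay within the vehicle range and the other 4 below it. The log2 fold change was −0.96 (SE 0.48, edgeR adjusted p = 0.383) with all libraries, and without M49 Slco3a1 fell by 1.53 (SE 0.42, edgeR adjusted p = 0.0461).

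**Figure D3:**
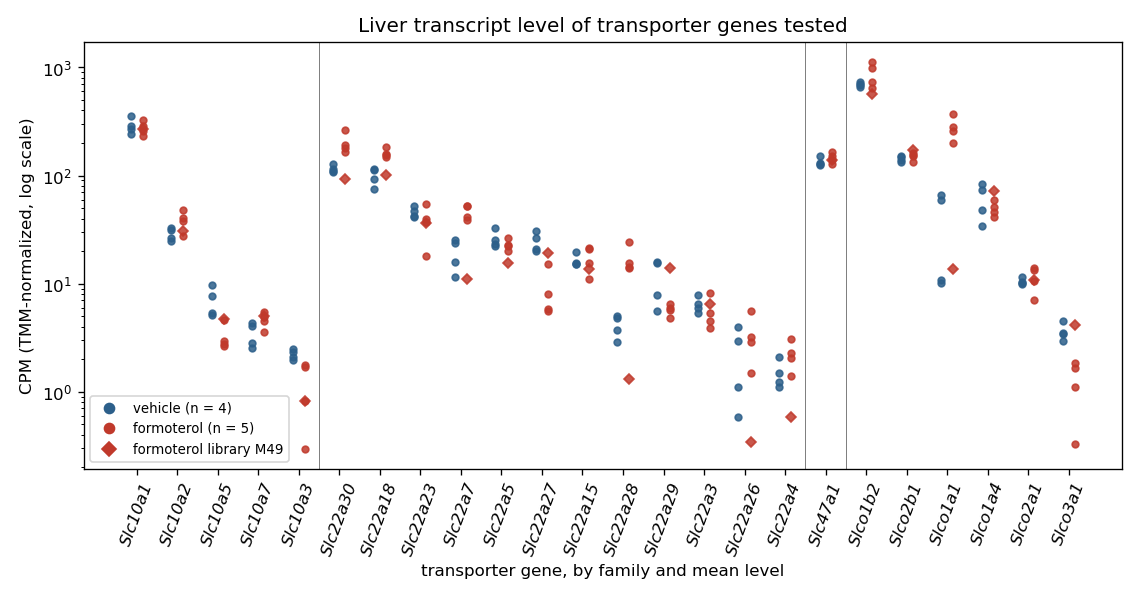
Level in CPM (vertical axis, log scale) of 24 of the 25 members tested in each library, ordered by family and mean level, for vehicle (blue, n = 4) and formoterol (red, n = 5), with formoterol library M49 as a diamond. Slco1a1 spans 10.1 to 368 CPM, while Slc47a1 and Slco2b1 stay within narrow ranges.

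The cation and carnitine carriers Slc22a3, Slc22a5 and Slc22a4 did not pass the test with or without M49, and their groups overlapped. Slc22a3 (OCT3), a carrier of monoamines, had 5.37, 3.90, 4.48, 6.48 and 8.12 CPM against 6.47, 6.01, 7.91 and 5.39, a log2 fold change of −0.18 (SE 0.25). Its values are uncertain, since the locus overlaps Plg on the other strand, which held 119588 counts over the 9 libraries against 909 for Slc22a3. Slc22a5, the high-affinity carnitine transporter, had 26.7, 20.0, 22.6, 15.5 and 22.2 CPM against 23.4, 32.5, 22.5 and 25.6. The groups overlapped, with a log2 fold change of −0.28 (SE 0.18, edgeR adjusted p = 0.488). Slc22a4, a carrier of ergothioneine, lay at 0.585 to 3.05 CPM with overlapping groups (edgeR adjusted p = 0.789).

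Slc22a18 (ENSMUSG00000000154; chromosome 7, 143027473 to 143053071), an imprinted gene related to organic cation transporters, was higher. Its level was 183, 156, 149, 102 and 157 CPM in the formoterol libraries and 75, 115, 93.0 and 111 in the vehicle libraries. All formoterol libraries but M49 lay above the vehicle range. The means of 149 ± 29.5 (SD, n = 5) and 98.5 ± 18.4 (SD, n = 4) gave a log2 fold change of 0.60 (SE 0.18, edgeR adjusted p = 0.191, exact permutation p = 0.0317). Without M49 Slc22a18 rose by 0.70 (SE 0.16, edgeR adjusted p = 0.0247). Slc22a23 and Slc22a15, orphan carriers of the family, did not pass the test with or without M49. For Slc22a23 the levels were 36.9, 40.0, 18.0, 36.2 and 54.4 CPM against 41.0, 42.5, 46.9 and 52.2 (edgeR adjusted p = 0.588). For Slc22a15 they were 15.4, 11.1, 21.0, 13.6 and 21.5 CPM against 15.7, 19.5, 15.1 and 15.3. Slc22a15 had a log2 fold change of 0.01 (SE 0.20), whose sign depended on the setting.

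Among the organic anion transporters of the Slc22a family, differences went in both directions. Slc22a7 (ENSMUSG00000067144; chromosome 17, 46743109 to 46749383), the hepatic OAT2, had 52.3, 52.7, 38.7, 11.1 and 41.4 CPM in the formoterol libraries and 23.7, 15.8, 11.4 and 25.2 in the vehicle libraries. M49 was the lowest of all 9 and the other 4 formoterol libraries were the 4 highest. The log2 fold change was 1.04 (SE 0.41, edgeR adjusted p = 0.28, exact permutation p = 0.143), and without M49 Slc22a7 rose by 1.28 (SE 0.23, edgeR adjusted p = 0.00825).

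Slc22a26, Slc22a27, Slc22a28, Slc22a29 and Slc22a30 are rodent genes that lie side by side on chromosome 19, between 7758406 and 8382475, all on the minus strand. They went in different directions. Slc22a28 (ENSMUSG00000063590) had 14, 14.3, 24.3, 1.32 and 15.5 CPM in the formoterol libraries and 5.01, 2.88, 4.83 and 3.75 in the vehicle libraries. Again 4 formoterol libraries lay above the vehicle range, and M49 lay below it. Its log2 fold change was 1.74 (SE 0.61, edgeR adjusted p = 0.242, exact permutation p = 0.159), and 2.03 without M49 (SE 0.24, edgeR adjusted p = 6.37e-04). Slc22a30 (ENSMUSG00000052562), the most abundant of the 5, had 191, 182, 265, 93.3 and 165 CPM against 110.3, 128, 108 and 115. The same 4 libraries were above the vehicle range and M49 below it. The log2 fold change was 0.64 (SE 0.23, edgeR adjusted p = 0.224, exact permutation p = 0.0873). Without M49 Slc22a30 rose by 0.80 (SE 0.17, edgeR adjusted p = 0.0155).

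Slc22a27 (ENSMUSG00000067656) went the other way, with 8.06, 5.6, 15.2, 19.4 and 5.82 CPM in the formoterol libraries and 20.8, 30.9, 19.9 and 26.5 in the vehicle libraries. Every formoterol library lay below every vehicle library, M49 just below. Means were 10.8 ± 6.17 (SD, n = 5) and 24.5 ± 5.19 (SD, n = 4), a log2 fold change of −1.17 (SE 0.35, edgeR adjusted p = 0.191, exact permutation p = 0.0317). Without M49 Slc22a27 fell by 1.5 (SE 0.29, edgeR adjusted p = 0.0147). Slc22a29 had 5.94, 5.74, 6.42, 13.8 and 4.77 CPM against 5.53, 15.7, 7.81 and 15.6. Its 3 highest libraries, M58, M60 and M49, were again the 3 with the least Slco1a1, and the groups overlapped (log2 fold change −0.59, SE 0.36, edgeR adjusted p = 0.483). Without M49 it was −0.96 (SE 0.30, edgeR adjusted p = 0.0751), and without M60 −0.38 or without M58 −0.39. Slc22a26 ranged from 0.341 CPM in M49 to 5.53 in M46, with overlapping groups (edgeR adjusted p = 0.867) and a sign that turned without M46 (−0.12). The ratio of Slc22a28 to Slc22a27 per kilobase was 1.72 to 2.85 in M46, M47, M48 and M50, 0.0728 in M49 and 0.1 to 0.261 in the vehicle libraries.

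These genes resemble one another closely, which limits how far their counts can be told apart. Of the 75-base windows of the longest GENCODE M21 transcript of Slc22a28, 36.4% also occurred in that of Slc22a30, and 27.8% of those of Slc22a30 occurred in Slc22a28. For Slc22a27 and Slc22a29, which align at 95.4% identity, the shares were 13.6% and 12.9%. Between the upper pair and the lower pair they were 1.98% to 4.78%, and Slc22a26 shared none with the others. The values of Slc22a28 and Slc22a30 relative to each other, and of Slc22a27 and Slc22a29, are therefore uncertain. The opposite differences of Slc22a28 and Slc22a27 concern transcripts that share 3.16% and 2.94% of their windows.

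The start regions of 3 of these genes are shown to let their likeness be read beside the values above. In the RefSeq promoter table the windows of Slc22a28 (minus strand of chr19:8131933-8132232) and Slc22a30 (chr19:8405056-8405355) were 98.0% identical over 294 aligned bases. The window of Slc22a29 (chr19:8218851-8219150) was 75.1% identical to that of Slc22a28 over 277 bases, and that of Slc22a27 43.9% over 237. In the lines for Slc22a30 and Slc22a29 capitals mark bases inside the aligned stretch that differ from Slc22a28 or face a gap in it, 6 in Slc22a30 and 92 in Slc22a29. Bases beyond the end of the aligned stretch, as at the 3′ end of the Slc22a30 line, are in lower case.
Slc22a28: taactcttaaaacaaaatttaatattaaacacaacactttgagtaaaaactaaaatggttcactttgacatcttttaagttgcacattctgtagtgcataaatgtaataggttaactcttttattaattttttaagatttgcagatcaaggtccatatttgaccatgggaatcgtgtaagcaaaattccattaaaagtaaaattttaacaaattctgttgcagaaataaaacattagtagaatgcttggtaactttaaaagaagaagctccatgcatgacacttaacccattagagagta
Slc22a30: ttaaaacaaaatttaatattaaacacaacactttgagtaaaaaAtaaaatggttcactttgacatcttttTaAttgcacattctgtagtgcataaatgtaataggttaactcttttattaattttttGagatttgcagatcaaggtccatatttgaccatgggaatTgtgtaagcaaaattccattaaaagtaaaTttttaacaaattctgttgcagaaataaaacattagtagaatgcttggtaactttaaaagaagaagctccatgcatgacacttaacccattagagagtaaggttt
Slc22a29: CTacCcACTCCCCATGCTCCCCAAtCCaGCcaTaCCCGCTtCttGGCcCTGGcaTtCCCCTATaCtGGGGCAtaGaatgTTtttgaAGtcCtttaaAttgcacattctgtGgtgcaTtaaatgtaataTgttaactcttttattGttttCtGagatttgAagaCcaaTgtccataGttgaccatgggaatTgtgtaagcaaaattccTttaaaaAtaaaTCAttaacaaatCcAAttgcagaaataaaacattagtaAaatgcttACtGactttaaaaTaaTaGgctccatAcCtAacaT

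Neither the bile acid carrier Slc10a1 nor any other Slc10a gene passed the test with all 9 libraries. For 2 orphan genes of the family every formoterol library lay below every vehicle library. Slc10a1 (chromosome 12, 80999957 to 81015479) had 259, 324, 286, 269 and 234 CPM in the formoterol libraries and 359, 240.0, 287 and 267 in the vehicle libraries. The groups overlapped, with a log2 fold change of −0.07 (SE 0.16, edgeR adjusted p = 0.875) that turned without M56 (0.05). Slc10a5 (ENSMUSG00000058921; chromosome 3, 10396794 to 10400716) had 2.93, 4.61, 2.79, 4.73 and 2.65 CPM against 7.75, 9.79, 5.08 and 5.33. Every formoterol library, M49 included, lay below every vehicle library. Its log2 fold change was −0.97 (SE 0.28, edgeR adjusted p = 0.179, exact permutation p = 0.0159), and without M49 Slc10a5 fell by 1.10 (SE 0.29, edgeR adjusted p = 0.0395).

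Slc10a3 (ENSMUSG00000032806; chromosome X, 73412823 to 73416955) had 0.814, 1.77, 1.69, 0.829 and 0.294 CPM against 2.10, 1.98, 2.49 and 2.32. Its groups did not overlap either (log2 fold change −1.05, SE 0.47, edgeR adjusted p = 0.317), and no library held more than 51 counts. The locus overlaps Ubl4a on the same strand, with 4313 counts against 238, so its values are uncertain. Over the 25 members tested, Slc22a27, Slc10a5 and Slc10a3 were the 3 (12%) whose groups did not overlap, beside 4.84% of all genes tested (2.45% higher and 2.38% lower in formoterol). Slc10a2, the apical bile acid transporter best known from ileum and bile ducts, had 40.2, 37.8, 47.9, 30.5 and 27.4 CPM against 31.2, 32.8, 26.6 and 24.6 (log2 fold change 0.35, SE 0.18, edgeR adjusted p = 0.375). It was 0.23 without M48, 0.41 without M49 (edgeR unadjusted p = 0.0353, adjusted p = 0.178) and 0.43 without M50 (edgeR unadjusted p = 0.024). Cholangiocyte markers (10 genes, of which 6 passed the filter on low counts) summed to 102 to 326 CPM in the formoterol libraries, with M49 the highest, and 135 to 262 in the vehicle libraries. Their part in the level of Slc10a2 was not tested. Slc10a7, which affects calcium handling and glycosylation, lay at 2.53 to 5.47 CPM (edgeR adjusted p = 0.447).

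Slc47a1, the exporter MATE1, varied little, with 128, 138, 150.4, 141 and 163 CPM in the formoterol libraries and 130.0, 152, 127 and 126 in the vehicle libraries. Highest and lowest library differed 1.30-fold, and the log2 fold change of 0.11 (SE 0.14, edgeR adjusted p = 0.757) turned with library totals (−0.05).

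Of the 23 members not tested, 12 had no count in any library. They were Slco1a5, Slco1a6, Slco5a1, Slco6c1, Slco6d1, Slc10a4 and the Slc22a genes Slc22a2, Slc22a6, Slc22a13, Slc22a16, Slc22a19 and Slc22a20, among them the renal carriers OCT2 and OAT1. A count of 0 allows up to 3 counts in a library, or 0.147 to 0.243 CPM at these depths, for counting error only. The 11 others had 1 to 83 counts over all 9 libraries. Slc22a21 and Slc22a17 had some in every library (83 and 54 in all), and Slc22a14, Slc47a2, Slco4c1, Slc22a22, Slco4a1, Slco1c1, Slc10a6, Slc22a12 and Slc22a8 had 19 or fewer.

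The libraries that were high in Slco1a1 and Slc22a28 were also high in Hsd3b5 and C8b, genes known to be male-biased in mouse liver, but not in every gene of that list. Hsd3b5, a steroid dehydrogenase of male liver, had 59.3, 75.8, 70.4, 0.78 and 59.5 CPM in the formoterol libraries and 1.69, 0, 2.00 and 0.211 in the vehicle libraries. Without M49 it rose by 5.98 on the log2 scale (edgeR adjusted p = 0.00493), and with all libraries the log2 fold change was 5.67 (SE 1.37, adjusted p = 0.178). Of 14 male-pattern genes tested, 13 had a positive log2 fold change, with a median of 0.69, where 48.7% of all genes were positive. An unadjusted p under 0.05 was found for 6, all higher, where 9.03% of all genes were. Positive signs were also common among periportal (11 of 13), pericentral (11 of 13) and general hepatocyte markers (10 of 14), with medians of 0.359, 0.218 and 0.155. At an edgeR unadjusted p under 0.05, 6, 3 and 4 of these were higher and 2, 2 and 0 lower. Of all genes 9.03% were higher and 5.53% lower. C8b, a complement component, had 126, 112, 88.1, 24.9 and 71.8 CPM against 46.2, 24.6, 31.2 and 26.2, and Nudt7, a peroxisomal hydrolase, had a log2 fold change of 0.72 (SE 0.21, edgeR adjusted p = 0.173). Elovl3, a fatty acid elongase, and Cyp4a12a, a cytochrome P450, were chosen for mention after their values were seen. Elovl3 had 22.3, 51.0, 43.5, 21.1 and 55 CPM against 43.5, 31.1, 52.1 and 29.5 (log2 fold change −0.02), and Cyp4a12a had more in M49, at 131 CPM, than in M48, at 91.8.

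Of 14 female-pattern genes only 6 passed the filter on low counts, and Cyp3a41a had no count in any library. Of the 6 tested, 5 were negative, with a median log2 fold change of −1.17. An unadjusted p under 0.05 was found for 2 lower and 1 higher, where 5.53% of all genes were lower and 9.03% higher. Cyp2b9, a cytochrome P450 of female liver, had 48.8, 26.1, 28.1, 70.8 and 33.2 CPM against 62.8, 143, 59.3 and 147, so M49, M58 and M60 were its 3 highest libraries as they were for Slco1a4 and Slc22a29. Cyp2a4 had 1.06, 0.78, 1.43, 19.1 and 2.53 CPM against 10.2, 36.5, 18.4 and 45.4. The gene higher was Atp6v0d2, a proton pump subunit (log2 fold change 0.96, SE 0.29). These lists were chosen with earlier results of these data known, and their part in the carriers' differences was not tested.

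**Figure D4:**
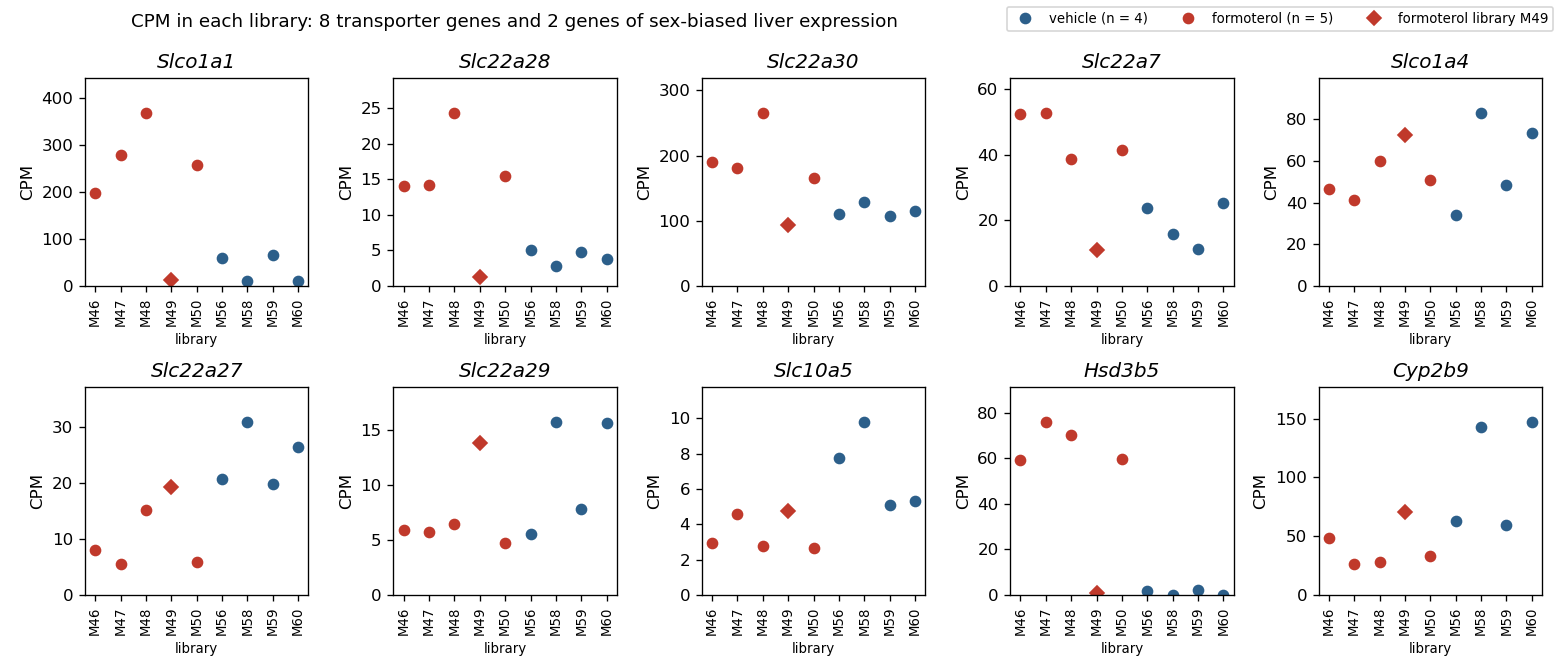
Level in CPM (vertical axes, linear, from 0) in each library (horizontal axes) of 8 carrier genes and of Hsd3b5 and Cyp2b9, for formoterol (red, M49 as a diamond) and vehicle (blue). Slco1a1, Slc22a28, Slc22a30, Slc22a7 and Hsd3b5 are high in M46, M47, M48 and M50 and not in M49, and Slco1a4, Slc22a29 and Cyp2b9 are highest in M49, M58 and M60.

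The exporters that take over where uptake ends were 6 positive and 6 negative. Of 12 genes of organic ion and bile acid export tested, an unadjusted p under 0.05 was found for 2 higher and 3 lower, where 9.03% and 5.53% of all genes were, with a median log2 fold change of −0.03. Abcb11, the bile salt export pump, had 311, 333, 437, 252 and 301 CPM in the formoterol libraries and 201, 205, 200.2 and 297 in the vehicle libraries (log2 fold change 0.53, SE 0.19, edgeR adjusted p = 0.22). Abcc2, the canalicular exporter of conjugated anions, had 198, 260.4, 240.2, 331 and 365 CPM against 489, 454, 401 and 365, so that M50 nearly met M60. Its log2 fold change was −0.62 (SE 0.18, edgeR adjusted p = 0.185), and it fell by 0.69 without M49 (edgeR adjusted p = 0.0445). Abcc4, a basolateral exporter, lay at 0.142 to 0.824 CPM against 0.823 to 2.20. It held only 2 to 45 counts in a library, so its values are limited by depth. Abcc3 differed little (log2 fold change −0.12, SE 0.13).

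Of 21 genes for regulators of these carriers, an unadjusted p under 0.05 was found for 3 higher and 1 lower, near the 9.03% and 5.53% of all genes, with a median log2 fold change of 0.03. Foxa3 and Bcl6, the latter a repressor in growth hormone signalling, had log2 fold changes of 0.66 (SE 0.23) and 1.03 (SE 0.37, with 43.5 CPM in M50 against 6.44 to 15.8 elsewhere). Hnf4a, the bile acid receptor gene Nr1h4 and its target Nr0b2 had log2 fold changes of −0.10, 0.25 and 0.04 (SE 0.18, 0.15 and 0.24).

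The 8 members with an unadjusted p under 0.05 kept their direction with any 1 library left out. Slco1a1 lay between 2.29 and 3.05 on the log2 scale, Slc22a28 between 1.42 and 2.03, Slc22a7 between 0.86 and 1.28, Slc22a30 between 0.44 and 0.80 and Slc22a18 between 0.49 and 0.70. For the lower genes the ranges were −1.5 to −1.02 for Slc22a27, −1.10 to −0.77 for Slc10a5 and −1.30 to −0.81 for Slc10a3. The unadjusted p of Slco1a1 was between 0.00596 and 0.0734, that of Slc22a7 between 5.25e-05 and 0.0754 and that of Slc10a3 between 0.021 and 0.0896, so these 3 did not keep to one side of 0.05. Slc22a28 kept below it in these removals, but plain limma-voom gave 1.15 for it with an unadjusted p of 0.172. Among these 8, the adjusted p was under 0.05 in no other single-library removal than that of M49, where it was so for all but Slco1a1 and Slc10a3. Over the 21 members with exact permutation tests, none passed after Benjamini-Hochberg adjustment (smallest adjusted value 0.208), and with 126 ways to assign 9 libraries the smallest p possible was 0.00794.

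**Figure D5:**
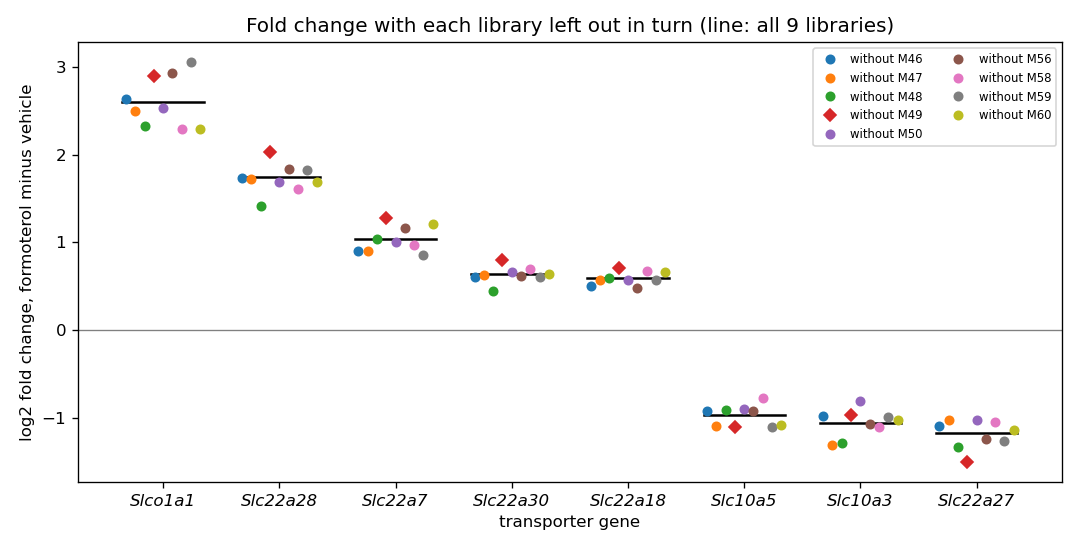
Log2 fold change, formoterol minus vehicle (vertical axis), of the 8 members with an unadjusted p under 0.05 (horizontal axis) with each library left out in turn (coloured points, M49 as a diamond) and with all 9 (black lines). All points of a gene lie on the same side of 0, and leaving out M49 gives the value farthest from 0 for Slc22a28, Slc22a7, Slc22a30, Slc22a18, Slc22a27 and Slc10a5.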

How the data were processed

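The deposited table holds raw counts of reads for each Ensembl gene, whole numbers that the authors left unnormalized, with symbols, coordinates, biotype and a gene length in bp. The submitters' processing notes name HISAT2 2.0.5 and mm39, and DESeq2 with no version. The program that counted reads, with its strand setting and annotation, is not given in the sources used here.

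Counts were tested with edgeR 4.0.16 in R 4.3.3 (filterByExpr with a minimum count of 10 and total of 15, TMM factors, robust quasi-likelihood test) on all 13042 genes kept, with Benjamini-Hochberg adjustment and a threshold of 0.05. Log2 fold changes are formoterol minus vehicle, and SE was derived from the F statistic. CPM are scaled with TMM factors. Two-sided exact permutation tests used log2(CPM + 0.1). Described in full are members with a mean of at least 5 CPM or an unadjusted p under 0.05. The members and lists were chosen with earlier results of these data known. Alternatives were DESeq2 1.42.0, limma-voom 3.58.1 with and without quality weights, 2 other scalings, no filter, removal of a gene length trend, and each library left out. The tests were tried on simulated counts. The labels name no batch. Single values of a few genes are not reported here, though counts over lists include them.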

Additional observations from a re-analysis of the deposited data

Results flagged for a closer look

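Over the 21 members described in full, 42 groups of libraries were examined for a single library far from the rest, which chance gives in about 1 of 20 groups, and 3 were found. Slc22a15 had 19.5 CPM in vehicle library M58, where the other vehicle libraries lay at 15.1 to 15.7. Slc22a29 had 13.8 CPM in formoterol library M49, where the others of its group lay at 4.77 to 6.42. Slc47a1 had 152 CPM in vehicle library M58, where the others lay at 126 to 130.0.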

How the results depend on the processing

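No paired analysis was possible because column names hold an animal code and no replicate number. Of 400 estimates of 25 members under other settings, 345 kept their direction and their side of an unadjusted p of 0.05, 22 went above it, 16 went below it and 17 changed sign. The sign changes were those of 7 members, none of them among the 8 with an edgeR unadjusted p under 0.05 with all libraries. Slc22a15 gave −0.0128 with limma-voom, −0.25 with quality weights, −0.0302 with upper-quartile factors, −0.16 with library totals and −0.11 to 0.12 with a library left out. Slc10a1 gave 0.0515 with quality weights and −0.149 to 0.0512 with a library left out. With library totals Slc47a1 gave −0.0455, Slco2b1 −0.0305 and Slco2a1 −0.0638. With a library left out Slco2a1 gave −0.0056 to 0.208, Slco1a4 −0.334 to 0.0576 and Slc22a26 −0.12 to 0.78. Library totals moved the median of all genes to −0.16 and that of the members to −0.06. Genes called overall were 302 with DESeq2, 1374 with quality weights, 263 without the filter and 0 to 702 with a library left out (702 without M49, 4 without M60). Members called were 1 with DESeq2, 6 with quality weights and 0 to 7 with a library left out (7 without M49). At an unadjusted p under 0.05, members higher were 3 to 6 with a library left out (3 without M46, M47, M48 or M58) and members lower were 5 with quality weights and 2 to 4 with a library left out (2 without M58, M59 or M60). The cause was not tested. Genes of a few CPM, such as Slc10a3 and Slco3a1, are limited by depth.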
